A study of Mus musculus with 4 samples.

Results

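The genes described here were the 4 cytokine genes through which stromal and bone cells control osteoclasts: Tnfsf11 (RANKL), Tnfrsf11b (osteoprotegerin, OPG), Csf1 (macrophage colony-stimulating factor, M-CSF) and Il34. They were chosen by symbol out of 28006 features, and each symbol matched 1 feature. Osteoclasts, the cells that resorb bone, form by fusion of monocyte-lineage precursors. The precursors survive and proliferate on CSF1 or IL34, which share the receptor CSF1R, and they become osteoclasts when RANKL engages the receptor RANK, encoded by Tnfrsf11a. OPG is a secreted decoy that binds RANKL, so the RANKL to OPG ratio is a usual summary of the signal that stromal cells send.

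The cells were tdTomato+ cells sorted by flow cytometry from mouse femurs of the genotype Cxcl12-iCreER; R26R(tdTomato/+). In this line a bacterial artificial chromosome transgene places tamoxifen-inducible Cre under Cxcl12, so a tamoxifen pulse leaves a permanent tdTomato label in cells that expressed the transgene at that time and in their descendants. All mice received tamoxifen 7 days before the marrow of the right femur was mechanically ablated, and cells were taken 7 days after ablation from the ablated femur (ABL) and from the unoperated contralateral femur (CONT). The CONT cells therefore also came from tamoxifen-treated, operated animals. There were 2 CONT and 2 ABL libraries, called CONT1 and ABL1 for replicate 1, made with Chromium version 2, and CONT2 and ABL2 for replicate 2, made with version 3. Replicate 1 was pooled from several mice, and the number of mice in replicate 2 is not given in the sources used here. The distal growth plates were removed and the proximal ends cut off before digestion. The tdTomato gate was aimed at the lineage of the driver, but blood cells also came through it, as described below. The ages and sexes of the mice are not stated in the labels.

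The libraries held between 22889380 and 44784072 unique molecular identifiers (UMIs, 1 per captured RNA molecule), and between 1459 and 3433 barcodes were kept as cells. At most 5 cell barcodes were shared by any pair of libraries. The labels call the cells bone marrow mesenchymal cells, yet clusters carrying markers of blood cells were present in every library, and mesenchymal cells numbered 1298 in CONT1, 691 in ABL1, 2053 in CONT2 and 1808 in ABL2. A check of the labels in the mesenchymal cells set 1 library apart. Xist, expressed from the inactive X chromosome of females, had a UMI in 49.8%, 81.3% and 71.9% of the cells of CONT1, ABL1 and CONT2, and in 0.0553% of those of ABL2. The ABL and CONT libraries of replicate 2 therefore did not hold the same mixture of sexes, although the study describes the femurs as pairs, so the 4 cytokine genes are given by replicate below. Replicate 1 also differed, less strongly: a Y-linked UMI and no Xist UMI was found in 24.4% of the cells of CONT1 and 11.0% of those of ABL1. In whole libraries of replicate 2, sex and ablation cannot be told apart, and in those of replicate 1 not fully. Values in cells with a Y-linked UMI and no Xist UMI are given beside the tests.

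Clusters were named from marker lists, without the 4 cytokine genes or the genes of their pathway in the clustering. Some pathway genes, Cxcl12 and Acp5 among them, were in the marker lists used for naming. The reticular-like class, marked by Cxcl12, Adipoq, Lepr and Hp, is the perisinusoidal stromal cell that surrounds marrow vessels. It made up 89.2% and 95.2% of the mesenchymal cells in the CONT libraries of replicates 1 and 2, and 58.6% and 18.3% in the ABL libraries. All 9 listed reticular markers had UMIs in this class in every library. Their summed level was 26493 to 32214 CPM (the UMIs of a gene, scaled to the same total in every library). These markers named the class, so the values are no separate evidence for the name. Periosteal-like cells made up 42.9% of the mesenchymal cells of ABL2 and 2.24% to 14.6% of those of the other libraries.

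The 4 genes lie apart in the genome (GRCm38, GENCODE M21 annotation), all on the minus strand. Tnfsf11 spans chr14:78277445-78308043, Tnfrsf11b chr15:54250619-54278484, Csf1 chr3:107741048-107760469 and Il34 chr8:110741829-110805924. For Tnfsf11 and Csf1, the members with the highest reticular levels, the 250 bases before the annotated start (RefSeq, GRCm38.p6, chr14:78308044-78308293 and chr3:107760470-107760719, minus strand) are given because these transcripts share a cell class, with a TATA box match in capitals.
Tnfsf11: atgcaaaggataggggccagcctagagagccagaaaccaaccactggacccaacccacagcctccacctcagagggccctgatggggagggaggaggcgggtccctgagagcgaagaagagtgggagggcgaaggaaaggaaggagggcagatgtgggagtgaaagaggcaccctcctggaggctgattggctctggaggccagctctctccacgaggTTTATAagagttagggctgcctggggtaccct
Csf1: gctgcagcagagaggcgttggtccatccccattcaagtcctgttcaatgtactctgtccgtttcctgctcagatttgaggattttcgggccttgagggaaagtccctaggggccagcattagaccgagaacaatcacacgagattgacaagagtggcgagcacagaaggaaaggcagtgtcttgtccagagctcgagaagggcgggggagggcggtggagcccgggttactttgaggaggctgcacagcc
Motifs were searched on both strands. The TATA box, spelled TATAAA, occurs in 12.4% of 32851 promoters of the same length. The AP-1 motif (the letters TGA and TCA with any base between them) occurs in 6.75% of them, and the palindromic EBF motif in 0.779%. Tnfsf11 held 1 TATA box match, read as its reverse complement, beginning 32 bases before its start, and no AP-1 or EBF match. Csf1 held none of the 3 motifs. No match says only that these letters are not in this window. Promoter sequences of Tnfrsf11b and Il34 were not used here.

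Tnfsf11 was foremost a transcript of the reticular-like cells. Its level there was 685 CPM in CONT1 (95% Poisson interval 663 to 706), 523 in ABL1 (497 to 549), 596 in CONT2 (586 to 605) and 384 in ABL2 (361 to 409). The ABL library of each replicate was the lower. Intervals here and below cover counting error only.

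Outside that class the level of Tnfsf11 was lower in every library. Pre-osteoblast-like cells, which carry Alpl, Wif1 and Postn, held 275 CPM in CONT1, 193 in ABL1 and 31.4 in ABL2. The clusters behind this class were unlike between replicates. That of replicate 1 had Wif1, Spp1 and Dmp1 among its leading genes, with Cxcl12 at 3029 CPM in ABL1. That of replicate 2 was led by Fmod, Msmp and Ndufa4l2, with Wif1 also among its leading genes and Cxcl12 at 38.7 CPM in ABL2. Periosteal-like cells held 147 and 165 CPM in CONT replicates 1 and 2, 145 in ABL1 and 26.0 in ABL2. Osteoblast-like cells, which carry Bglap and Ibsp, held 124 CPM in CONT1 on 16 UMIs, 29.2 in ABL1 and 11.2 in ABL2. The order reticular, pre-osteoblast, periosteal, osteoblast held in CONT and ABL of replicate 1. The intervals of neighbours overlapped for periosteal-like and osteoblast-like cells in CONT, and for pre-osteoblast-like and periosteal-like cells in ABL.

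**Figure D1:**
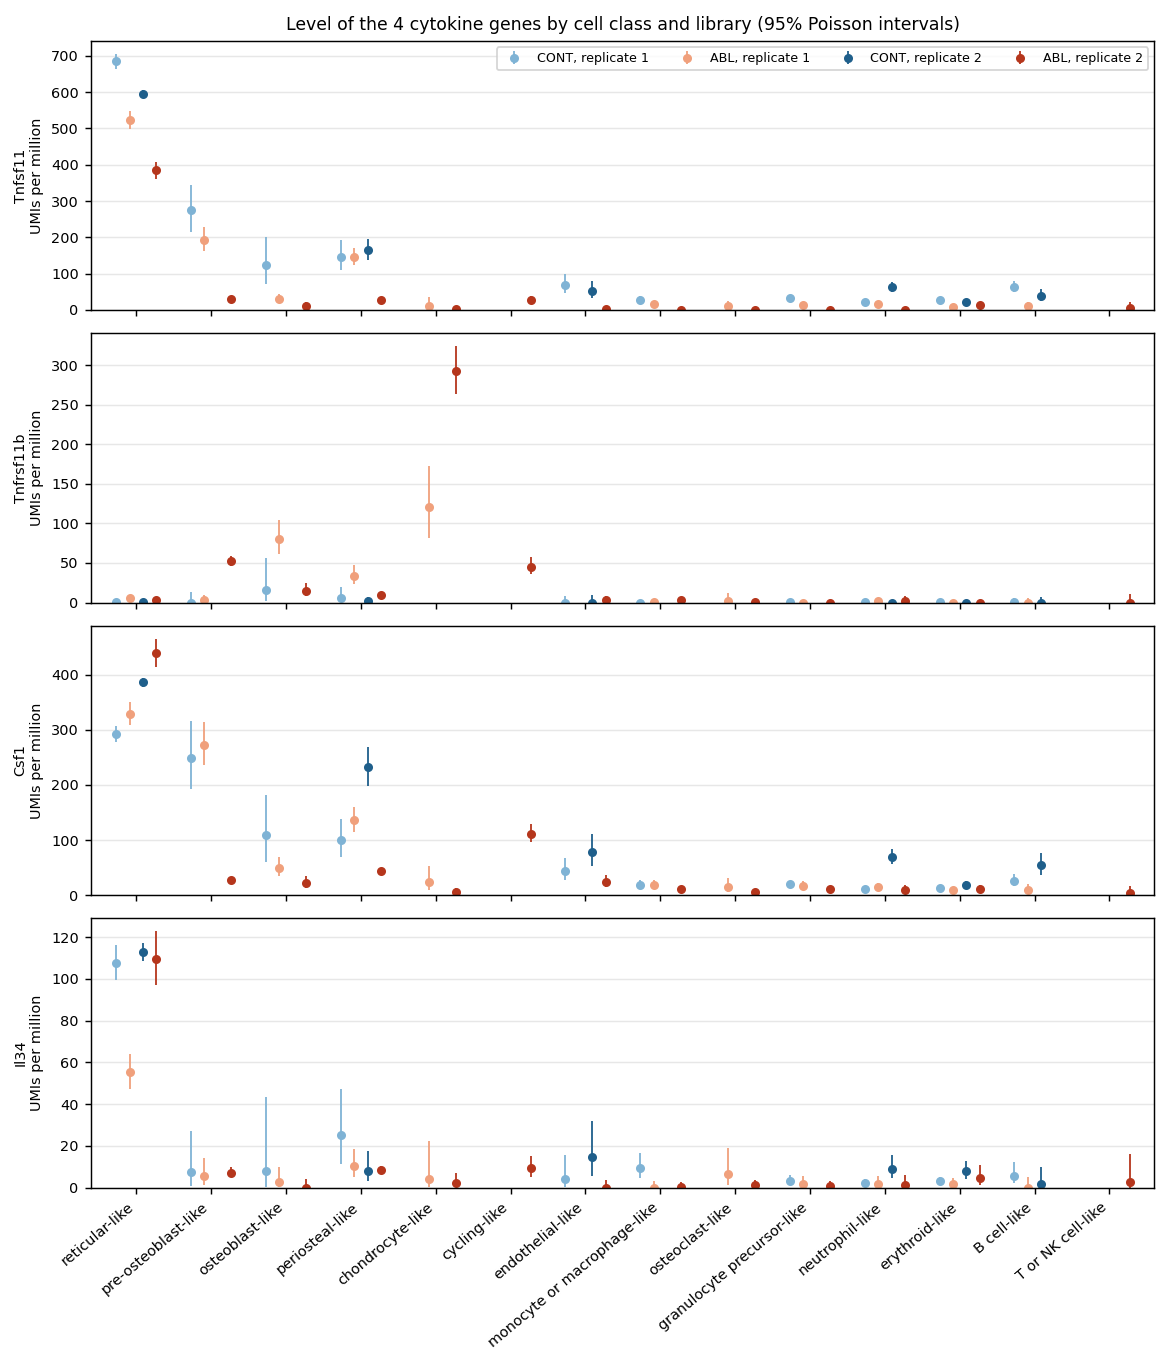
Level of each cytokine gene (vertical axes, CPM, 1 panel per gene) by cell class (horizontal axis) in the 4 libraries, as points with 95% Poisson intervals, for classes of 10 or more cells. Among the named classes drawn, Tnfsf11, Csf1 and Il34 are highest in reticular-like cells, whereas Tnfrsf11b is highest in the chondrocyte-like cells of ABL1 and ABL2, at 121 and 293 CPM.

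The share of cells with the transcript was also compared with depth made equal. After every cell was thinned to 2000 UMIs, a Tnfsf11 UMI was found in 59.1% of reticular-like cells of CONT1 (exact binomial interval 56.2 to 61.9), 54.6% of ABL1 (49.6 to 59.5), 50.3% of CONT2 (48.0 to 52.5) and 44.2% of ABL2 (38.8 to 49.8). The ABL share was the lower in each replicate. The intervals overlapped in both, but overlap of separate intervals does not test the difference. Unthinned shares, at 79.9%, 85.7%, 85.3% and 70.3%, had the other order in replicate 1. Blood cells, with B-cell-like and T- or NK-cell-like ones included, were used to gauge the background of free RNA. Their thinned shares were 5.80%, 1.88%, 4.08% and 0.163% in the same order. Empty droplets themselves held Tnfsf11 at 291, 211, 477 and 62.1 CPM. From hemoglobin transcripts, free RNA was estimated to make up 9.88%, 13.8%, 0.937% and 26.0% of the reticular-like UMIs, which corresponds to at most 29.1 CPM of Tnfsf11 in any library. Acp5, an osteoclast transcript abundant in the empty droplets of ABL, gave an upper limit on free RNA there. If each of its UMIs in reticular-like cells were free RNA, the share would be 8.68% in ABL1 and 2.21% in ABL2. The hemoglobin estimate does not hold for Acp5 in either ABL library. It would give 35.6 CPM of Acp5 in ABL1 against 22.3 CPM counted, and 67.8 CPM in ABL2 against 5.75 CPM counted. In CONT1 it would give 5.87 CPM against 4.99 CPM counted, and in CONT2 0.0840 against 0.848 CPM.

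Reticular-like cells were not uniform in Tnfsf11. In CONT1 the level ran from 354 CPM in 1 cluster to 897 CPM in the highest, and in CONT2 from 193 to 782 CPM. The highest cluster of each replicate had Ccl2, a chemokine that attracts monocytes, among its leading genes. Ccl2 stood at 1854 CPM there in CONT1 and at 1115 CPM in CONT2, against 203 CPM and 32.2 CPM in the clusters lowest in Tnfsf11. Tnfsf11 itself was among the 10 leading genes of both clusters. Xist was also among the leading genes of the highest and the lowest cluster of replicate 2, and ABL2 held almost none. In CONT1 the reticular-like clusters had the same order for Ccl2 as for Tnfsf11. In CONT2 they did not. Ccl2 was highest there, at 2469 CPM, in a cluster led by Cxcl10 with Tnfsf11 at 568 CPM. Other reticular clusters were led by immediate early genes such as Fosb, Jun and Egr1 or by heat shock genes such as Hspa1a.

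Within replicate 1, Tnfsf11 was lower in ABL than in CONT in 5 of the 5 reticular-like clusters that had 10 or more cells in each library. Within replicate 2 it was lower in 7 of 7. These clusters were made after the mesenchymal cells of CONT and ABL had been integrated within each replicate. The clusters of a library share its cells, preparation and depth and are no replicates of one another. The largest gap was in a replicate 2 cluster led by Cxcl10 and other interferon-induced genes, with 568 CPM in CONT and 59.2 CPM in ABL on 25 and 19 cells. Its cells also differed in Cxcl12, at 17826 CPM in CONT and 8140 CPM in ABL, and in Ccl2, at 2469 and 106 CPM. Cxcl12 was also unlike in the replicate 2 cluster led by Zfp36 and Socs3, at 8490 and 2244 CPM. It differed less in the largest cluster of replicate 2, at 17088 and 14873 CPM.

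**Figure D2:**
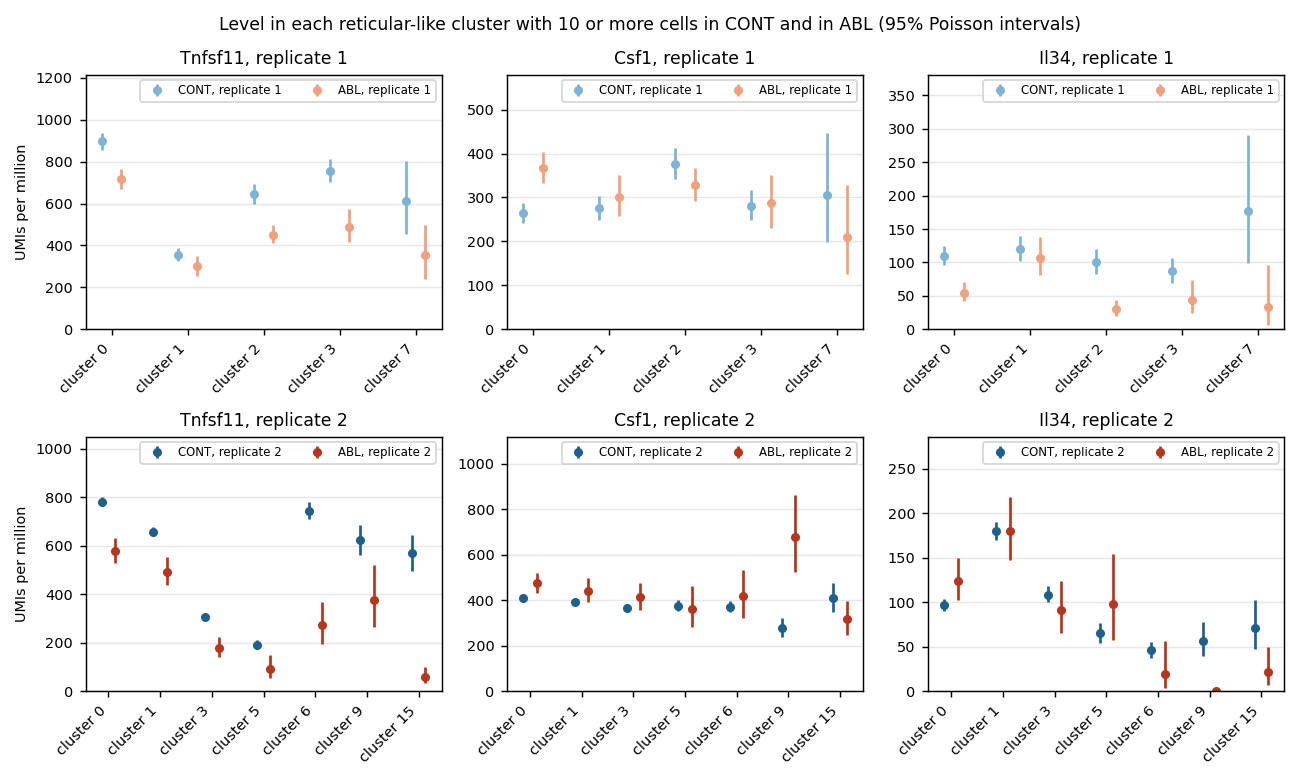
Level (vertical axes, CPM, with 95% Poisson intervals) of Tnfsf11, Csf1 and Il34 in each reticular-like cluster (horizontal axes; clusters were made separately for each replicate) in CONT and ABL. The Tnfsf11 point of ABL lies below that of CONT in all 12 clusters, while Csf1 is lower in ABL in 2 of 5 clusters of replicate 1 and 2 of 7 of replicate 2.

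Among classes of 10 or more cells, Csf1 was also highest in reticular-like cells, and there it did not part by condition. The level was 293 CPM in CONT1 (interval 279 to 307), 330 in ABL1 (310 to 351), 386 in CONT2 (379 to 394) and 439 in ABL2 (414 to 466). The ABL library of each replicate was slightly the higher, but the replicates differed from each other by more than the conditions did. The spread among reticular-like clusters was narrow compared with that of Tnfsf11, from 264 to 376 CPM in CONT1 and from 277 to 409 CPM in CONT2. Pre-osteoblast-like cells of replicate 1 had intervals that overlapped those of the reticular-like cells, with 248 CPM (192 to 316) in CONT and 273 CPM (237 to 314) in ABL. Those of ABL2, in the unlike cluster described above, held 26.8 CPM.

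Il34, the alternative ligand of CSF1R, was the most restricted of the 3 reticular transcripts. Its reticular-like level was 107.6 CPM in CONT1, 55.2 in ABL1, 113 in CONT2 and 109 in ABL2. Only the ABL library of replicate 1 stood apart, and its interval (47.2 to 64.2) did not reach that of any other library. In every other mesenchymal class of 10 or more cells with a name the level was at most 24.98 CPM. Unnamed mesenchymal clusters of ABL1 held 59.9 CPM on 15 UMIs in 21 cells, with an interval (33.5 to 98.8) that included the reticular-like level. Within CONT2, the reticular-like clusters ran from 45.8 CPM to 180 CPM, and the highest was the cluster led by Serpina3n and Il6 rather than the one highest in Tnfsf11.

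Tnfrsf11b was almost absent from the reticular-like cells. Only 6 UMIs were counted in 1158 such cells of CONT1, 17 in 405 of ABL1, 9 in 1954 of CONT2 and 9 in 330 of ABL2. In CPM these were 1.03, 5.59, 0.347 and 3.45. Empty droplets held 0.946, 13.02, 0.512 and 15.4 CPM of Tnfrsf11b, and the hemoglobin estimate of free RNA would give 1.80 CPM in ABL1 and 4.003 CPM in ABL2. At the upper limit set by Acp5, free RNA would give 1.13 CPM in ABL1 and 0.340 CPM in ABL2, against 5.59 and 3.45 CPM counted. At the upper counting bound of that limit the values would be 1.43 and 0.560 CPM. The part of free RNA in these counts was not tested.

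The decoy receptor was instead found in cells of the skeletal lineages of the ablated femurs. Chondrocyte-like cells, which carry Acan and Col2a1, held 121 CPM in ABL1 (30 UMIs in 15 cells, interval 81.7 to 173) and 293 CPM in ABL2 (378 UMIs in 69 cells, 264 to 324). Osteoblast-like cells held 80.7 CPM in ABL1 and 14.6 in ABL2. Pre-osteoblast-like cells showed the opposite order, with 2.73 CPM in ABL1 and 52.6 in ABL2, in the unlike clusters described above. In the CONT libraries these classes held 7, 13 and 43 cells in replicate 1 and 1 chondrocyte-like, 2 osteoblast-like and no pre-osteoblast-like cells in replicate 2, with 4 UMIs of Tnfrsf11b in all, so no class among them could be compared in both replicates. In osteoblast-like cells of replicate 1, 2 UMIs in 13 CONT cells (15.5 CPM, interval 1.88 to 56.1) stood against 58 UMIs in 61 ABL cells (80.7 CPM, 61.3 to 104), and 8 of those ABL cells had a UMI. The periosteal-like class had cells in each library, and its level was 5.55 and 1.35 CPM in CONT and 34.0 and 9.36 CPM in ABL, on 2, 1, 36 and 114 UMIs. In replicate 2 these cells lay largely in different clusters. In CONT2, 26 of the 46 cells lay in 1 cluster, which held 50 of the 775 cells of ABL2, while 474 and 195 cells of ABL2 lay in a pair of clusters with 9 and 11 CONT2 cells, and 56 in a cluster with none. That last cluster held 36 of the 114 Tnfrsf11b UMIs, at 25.9 CPM, and the cluster of 195 cells stood at 1.53 CPM.

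The UMIs were then divided by source. Reticular-like cells held 84.5% of the Tnfsf11 UMIs of all cells in CONT1 and 96.5% in CONT2, against 77.8% and 57.6% in ABL. For Csf1 the reticular share was 80.3% and 92.8% in CONT and 65.9% and 44.4% in ABL, and for Il34 it was 87.7% and 97.0% in CONT and 78.9% and 59.4% in ABL. Of the 150 Tnfrsf11b UMIs of ABL1, 38.7% came from osteoblast-like, 24.0% from periosteal-like and 20% from chondrocyte-like cells. Of the 915 of ABL2, 41.3% came from chondrocyte-like, 29.8% from pre-osteoblast-like and 12.5% from periosteal-like cells. Shares of UMIs follow both the number of cells and the level in each, and reticular-like cells were also the fewer in ABL.

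**Figure D3:**
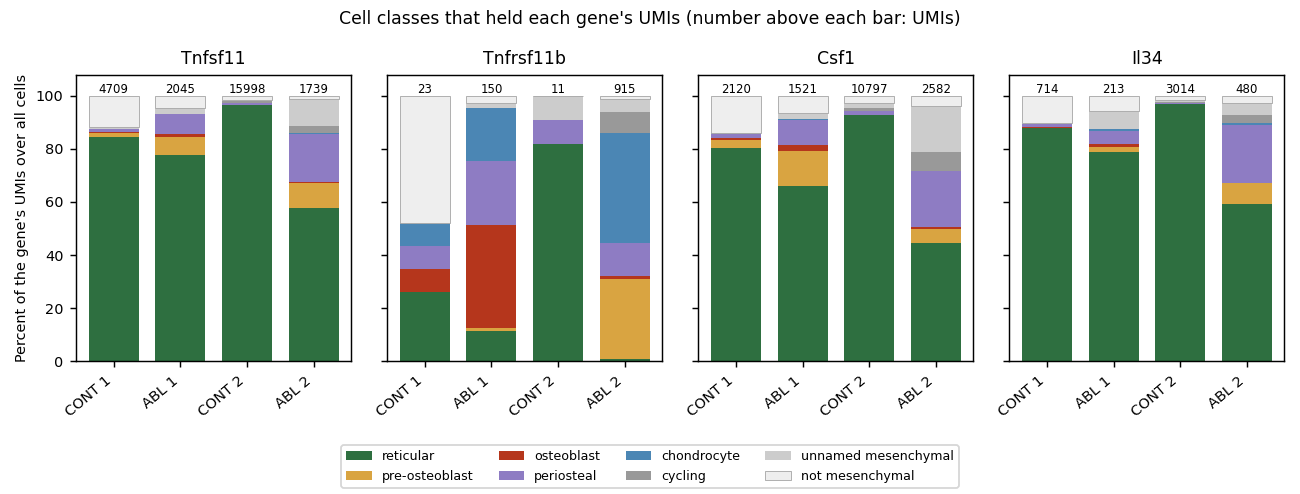
Percent of each gene's UMIs over all cells (vertical axis) by cell class (colours) in the 4 libraries (bars), with the number of UMIs above each bar. Reticular-like cells hold most UMIs of Tnfsf11 and Il34 in every library, and 0.984% of the Tnfrsf11b UMIs in ABL2.

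The balance of ligand and decoy was read as the Tnfsf11 percent of Tnfsf11 plus Tnfrsf11b UMIs, a ratio of molecules counted within a library that needs no scaling. Over all mesenchymal cells it was 99.7% in CONT1 (exact binomial interval 99.5 to 99.9), 93.0% in ABL1 (91.9 to 94.1), 99.93% in CONT2 (99.88 to 99.97) and 65.5% in ABL2 (63.7 to 67.4). The ABL library of each replicate was lower, and the 2 ABL libraries differed widely from each other. With 2 libraries per condition the smallest p that an exact permutation test allows is 0.333, so no test was made. Capture efficiency per transcript is unknown, and the values are ratios of RNA, not of protein.

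By class, the percentage was close to its ceiling in reticular-like cells, at 99.8% and 99.9% in CONT and 98.9% and 99.1% in ABL, where it hides changes in the ratio itself. The ratio of Tnfsf11 to Tnfrsf11b UMIs there was 664 in CONT1 (interval 305 to 1811) against 93.5 in ABL1 (58.2 to 161), and 1716 in CONT2 (904 to 3758) against 111 in ABL2 (58.4 to 244). It was thus lower in ABL of each replicate, on 6 to 17 Tnfrsf11b UMIs per library. The percentage was 96.4% and 99.2% in periosteal-like cells of CONT and 81.0% and 73.5% in those of ABL, in replicate 2 across the differing clusters described above. Pre-osteoblast-like cells stood at 100% in CONT1 on 73 UMIs and at 98.6% in ABL1. In ABL2, in the unlike cluster described above, they stood at 37.4% (32.8 to 42.1). Osteoblast-like cells stood at 88.9% in CONT1 (65.3 to 98.6, 18 UMIs) and 26.6% in ABL1 (17.3 to 37.7), and at 43.5% in ABL2 (23.2 to 65.5) on 10 UMIs of Tnfsf11 and 13 of Tnfrsf11b. Chondrocyte-like cells stood at 9.09% and 0.526% in ABL. Tnfrsf11b therefore outnumbered Tnfsf11 beyond counting error in the chondrocyte-like cells of both ABL libraries and the osteoblast-like cells of ABL1. The same held in ABL2 for pre-osteoblast-like cells and for cycling mesenchymal cells, the latter at 38.1% (29.4 to 47.5). These intervals treat UMIs as independent and do not cover the spread between cells. Most osteoblast-like cells of ABL1 had no Tnfrsf11b UMI, as given above.

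**Figure D4:**
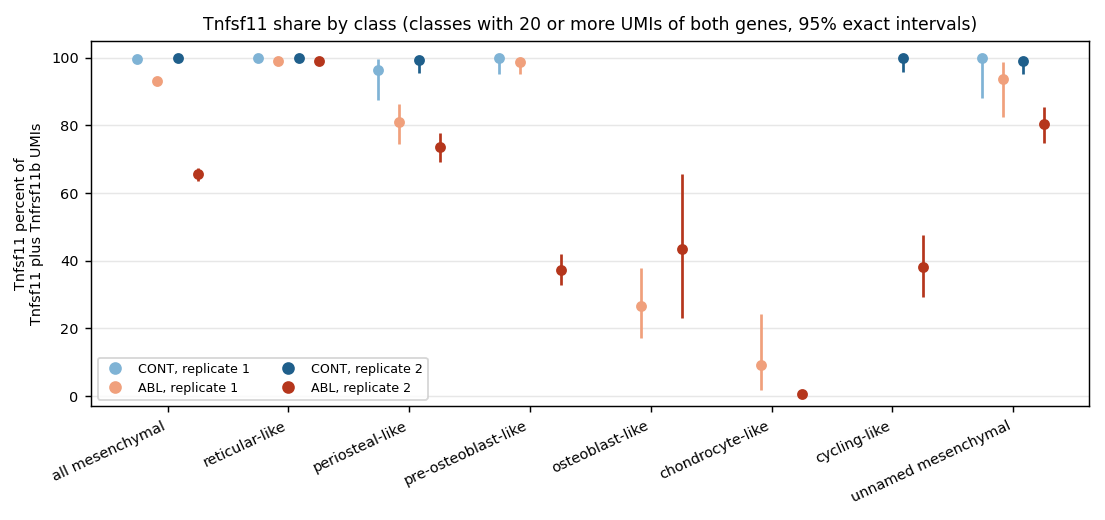
Tnfsf11 percent of Tnfsf11 plus Tnfrsf11b UMIs (vertical axis) by cell class (horizontal axis) in the 4 libraries, with 95% exact binomial intervals, for classes with 20 or more UMIs of both genes together. Reticular-like cells lie at 98.9% or above in all 4 libraries, near the ceiling, where the ratio of the UMIs was 664 and 1716 in CONT and 93.5 and 111 in ABL, and chondrocyte-like cells of ABL lie at 9.09% and 0.526%.

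ABL was tested against CONT on UMIs summed per library, with the replicate as a block. In reticular-like cells 11400 genes were tested and 3.71% were called at an adjusted p under 0.05 (1.99% higher and 1.72% lower in ABL). All 4 members passed the filter on low counts. Tnfsf11 did not pass the test: its log2 ratio was -0.61 ± 0.35 (SE, edgeR adjusted p = 0.452). By replicate it was -0.53 and -0.75. Csf1 had a log2 ratio of 0.08 ± 0.32 (edgeR adjusted p = 0.956), with 0.03 and 0.07 by replicate, and Il34 one of -0.59 ± 0.25 (edgeR adjusted p = 0.253) made of -1.11 in replicate 1 and -0.16 in replicate 2. Tnfrsf11b passed, at a log2 ratio of 2.75 ± 0.76 (edgeR adjusted p = 0.0287) with 2.29 and 3.20 by replicate, on the few UMIs given above. That call was lost when the empty-droplet profile was subtracted at the hemoglobin estimate or cells were thinned, since the gene then fell below the count filter, without the replicate block (edgeR adjusted p = 0.9997), and with Scrublet doublets removed (edgeR adjusted p = 0.0651) or with DESeq2 (adjusted p = 0.226).

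The fit had 1 residual degree of freedom and drew on the spread across all genes. The study calls the replicates biological, the labels do not say so, and the p-values measure the spread between these libraries. Without replicate 2, whose libraries differed most in Xist, the log2 ratios in reticular-like cells were -0.53 for Tnfsf11, 2.29 for Tnfrsf11b, 0.03 for Csf1 and -1.11 for Il34, with no test. The mixture of sexes was not equal in replicate 1 either. In cells with a Y-linked UMI and no Xist UMI, the reticular-like log2 ratio of Tnfsf11 was -1.05 in replicate 1 and -0.86 in replicate 2, that of Csf1 was -0.47 and 0.0019, and that of Il34 was -0.97 and -0.77, on 45 to 488 cells per library. That of Tnfrsf11b was 4.25 and 4.63, on no more than the few UMIs given above.

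Other measures of the reticular-like class also differed between CONT and ABL. Of the marker lists given here, all but the erythroid and periosteal ones went in the same direction in both replicates. Lists not given here did not all do so. The periosteal markers summed to 796 CPM in CONT1 and 864 in ABL1, and to 1115 and 848 in replicate 2. The 9 reticular markers summed to 29813 and 32214 CPM in CONT and 26493 and 27068 in ABL. The 8 neutrophil markers summed to 10038 CPM in CONT1 and 6003 in ABL1, and to 141 and 104 in replicate 2. The 8 pre-osteoblast markers summed to 1546 and 1464 CPM in CONT and 3861 and 2947 in ABL. The 7 osteoclast markers summed to 62.6 and 40.4 CPM in CONT and 121 and 52.9 in ABL, with Ocstamp and Atp6v0d2 at or under 2 CPM throughout. The 7 chondrocyte markers found, of the cells highest in Tnfrsf11b, summed to 77.2 and 77.8 CPM in CONT and 273 and 190 in ABL. The 8 osteoblast markers summed to 3958 and 7326 CPM in CONT and 3037 and 2486 in ABL. The 8 erythroid markers summed to 14913 CPM in CONT1 and 11776 in ABL1, and to 279 and 2237 in replicate 2. The part of these in the results was not tested.

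In all mesenchymal cells together, which weighs each class by its cells, 13674 genes were tested and 2.98% were called (2.17% higher and 0.812% lower in ABL). Tnfrsf11b was higher in ABL, at 24.1 and 35.3 CPM against 1.78 and 0.399 CPM in CONT, with a log2 ratio of 5.12 ± 0.66 (edgeR adjusted p = 0.00218), made of 3.68 in replicate 1 and 6.48 in replicate 2. Il34 was lower, at 33.2 and 18.2 CPM against 94.9 and 107 CPM, with a log2 ratio of -2.07 ± 0.46 (edgeR adjusted p = 0.0260), made of -1.59 and -2.55. Tnfsf11 stood at 323 and 67.2 CPM in ABL and 616 and 572 CPM in CONT. Its log2 ratio of -2.05 ± 0.70 did not pass (edgeR adjusted p = 0.138). By replicate it was -1.01 and -3.08. Csf1, at 235 and 96.8 CPM in ABL and 270 and 381 CPM in CONT, had a log2 ratio of -1.13 ± 0.60 (edgeR adjusted p = 0.390), with -0.28 and -1.96 by replicate. In cells with a Y-linked UMI and no Xist UMI, the log2 ratios by replicate were 4.44 and 7.09 for Tnfrsf11b and -1.84 and -3.15 for Il34. They were -1.76 and -3.19 for Tnfsf11 and -0.67 and -1.92 for Csf1, on 76 to 1273 cells per library and with no test.

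Tnfrsf11b passed in 12 and Il34 in 11 of the 13 alternatives that gave a test, DESeq2 among them (adjusted p = 2.67e-09 and 0.00252). Without the replicate block neither passed (edgeR adjusted p = 0.456 for each), and Il34 was not past the threshold once the empty-droplet profile was subtracted (edgeR adjusted p = 0.113). DESeq2 placed Tnfsf11 past it (adjusted p = 0.00942). Since fewer cells of a class and less RNA per cell both lower such a sum, the reticular-like values above are the ones taken within a class.

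**Figure D5:**
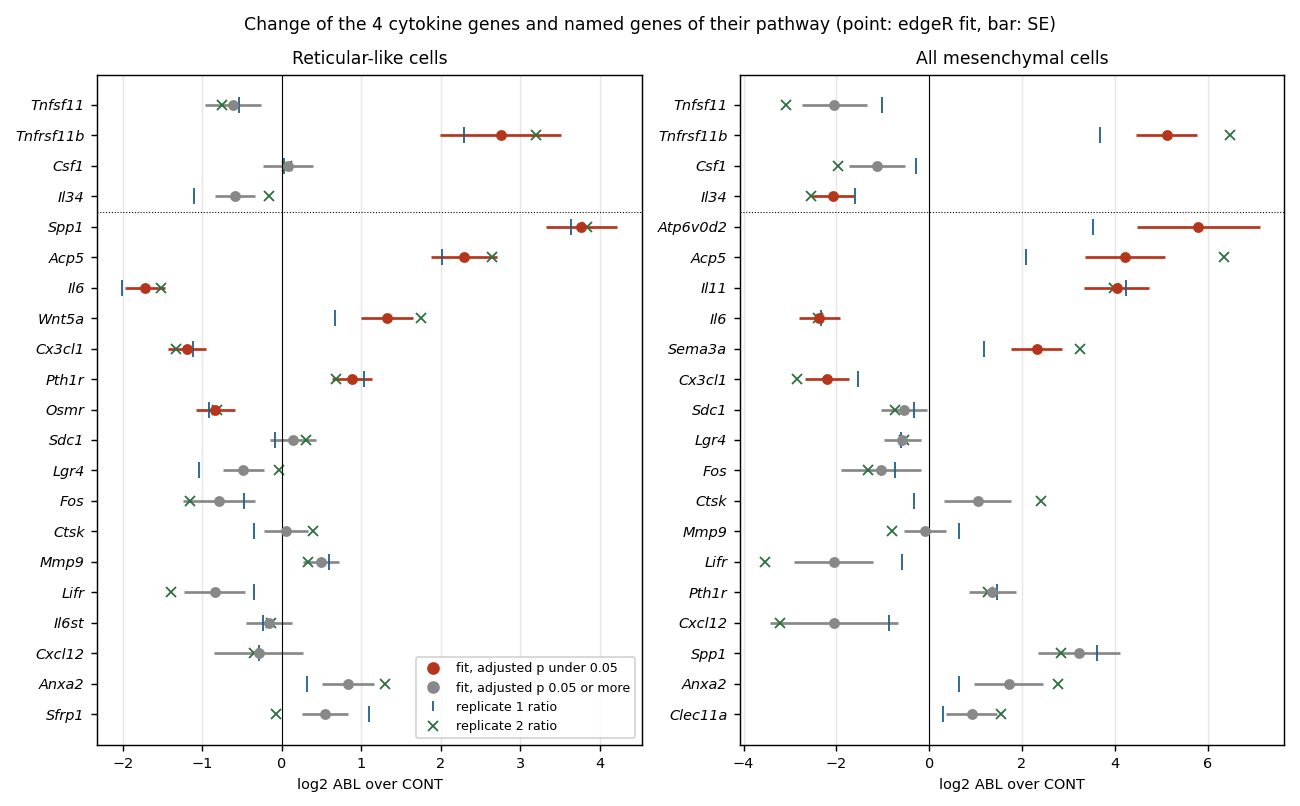
Log2 ratio of ABL over CONT (horizontal axes) for the 4 cytokine genes, above the dotted line, and named genes of their pathway, in reticular-like cells (left) and all mesenchymal cells (right). Points are edgeR fits with SE bars, red where the adjusted p was under 0.05; ticks and crosses are replicates 1 and 2, and the replicate 2 ratio of Atp6v0d2 is not drawn because its CONT count was 0.

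Of 92 listed genes of the wider pathway, 73 were tested in reticular-like cells, of which 4 were higher and 3 lower in ABL with edgeR and 5 passed with DESeq2. Over all 11400 genes tested there, edgeR called 3.71% and DESeq2 called 161 genes, which also stand beside the counts by role below. The median log2 ratio of the listed genes was -0.22, against -0.01 over all genes tested. In all mesenchymal cells 81 were tested, of which 4 were higher and 2 lower with edgeR and 13 passed with DESeq2, with a median of -0.44 against -0.05. Over all 13674 genes tested there, edgeR called 2.98% and DESeq2 called 675 genes.

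Among 24 inducers of RANKL and their receptors, 20 were tested in reticular-like cells, and 1 rose and 2 fell with edgeR, while DESeq2 called 1 gene, Il6. Il6, a cytokine that raises RANKL in stromal cells, fell from 91.0 and 138 CPM in CONT to 24.98 and 52.2 CPM in ABL, with a log2 ratio of -1.72 ± 0.25 (edgeR adjusted p = 4.40e-06). Osmr, the receptor for oncostatin M, fell from 107 and 150 CPM to 62.4 and 92.4 CPM, with a log2 ratio of -0.84 ± 0.24 (edgeR adjusted p = 0.0412, DESeq2 adjusted p = 0.136). Pth1r, the parathyroid hormone receptor, rose from 90.8 and 75.9 CPM to 205 and 132 CPM, with a log2 ratio of 0.89 ± 0.25 (edgeR adjusted p = 0.0346, DESeq2 adjusted p = 0.111). Lifr and Il6st, the subunits with the highest levels in this list, did not pass. Lifr had log2 ratios of -0.35 and -1.39 in replicates 1 and 2, and Il6st -0.24 and -0.14. In all mesenchymal cells Il6 fell again, and Il11 rose from 0.297 and 0.544 CPM to 5.95 and 8.56 CPM, with a log2 ratio of 4.05 ± 0.70 (edgeR adjusted p = 0.00929).

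All 12 genes of the list of other stromal ligands that raise osteoclast formation were tested in reticular-like cells, and 2 rose and 1 fell. Spp1, which encodes the matrix protein osteopontin, rose from 139 and 172 CPM to 1910 and 2678 CPM, with a log2 ratio of 3.77 ± 0.45 (edgeR adjusted p = 5.64e-08). Wnt5a rose from 6.36 and 6.63 CPM to 11.2 and 24.2 CPM, with a log2 ratio of 1.32 ± 0.33 (edgeR adjusted p = 0.0110, DESeq2 adjusted p = 0.428). Cx3cl1, a chemokine for monocytes, fell from 115 and 106 CPM to 58.5 and 46.0 CPM, with a log2 ratio of -1.19 ± 0.24 (edgeR adjusted p = 0.000828). Cxcl12 itself had a log2 ratio of -0.29 ± 0.56, with -0.29 and -0.35 by replicate, and did not pass. It was also a marker that named the reticular-like class, so its level there is not independent of the naming. In all mesenchymal cells its log2 ratios by replicate were -0.87 and -3.21, and it did not pass there either.

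Of 16 stromal ligands that lower osteoclast formation, 11 were tested in reticular-like cells and none passed with edgeR or DESeq2. Anxa2 and Sfrp1 had the highest levels among them. The log2 ratio of Anxa2 was 0.31 in replicate 1 and 1.29 in replicate 2, and that of Sfrp1 was 1.10 and -0.07, so the replicates differed in size for both and in sign for Sfrp1. In all mesenchymal cells 12 were tested and Sema3a, a semaphorin that represses osteoclast formation, rose from 3.86 and 4.24 CPM to 9.26 and 40.1 CPM with a log2 ratio of 2.31 ± 0.54 (edgeR adjusted p = 0.0346).

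The osteoclast effectors in stromal sums need the free RNA beside them. Acp5, the tartrate-resistant acid phosphatase, was higher in reticular-like cells of ABL (22.3 and 5.75 CPM) than of CONT (4.99 and 0.848 CPM), with a log2 ratio of 2.29 ± 0.42 (edgeR adjusted p = 0.000218). Empty droplets of the ABL libraries held 257 and 260 CPM of it, against 59.4 and 8.97 in CONT. In all mesenchymal cells Acp5 and Atp6v0d2, a subunit of the osteoclast proton pump, passed, the latter on 1.82 and 2.66 CPM in ABL with 33.6 and 34.3 CPM in empty droplets. Ctsk and Mmp9, the most abundant effectors in reticular-like cells, did not pass, with log2 ratios by replicate of -0.34 and 0.39 for Ctsk and 0.60 and 0.33 for Mmp9. The part of free RNA in these results was not tested.

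The receiving side was measured in the blood cells that came through the sort. Clusters named osteoclast-like from Acp5, Atp6v0d2, Ocstamp, Dcstamp, Calcr, Itgb3 and Mmp9 held 20 cells in ABL1 (1.37% of its cells, exact binomial interval 0.839 to 2.11) and 80 in ABL2 (3.15%, 2.51 to 3.91). In ABL1 the class depended on the settings, with 0 such cells under a stricter cell filter or a coarser clustering and 59 under a looser filter. No cluster of the CONT libraries, of 3433 and 2404 cells, was given this name. Each library was clustered alone for this step and names were given to whole clusters, so single cells of this kind in CONT were not counted. Acp5 stood at 6437 and 6048 CPM in these clusters. A pair of genes chosen after their values were seen, Ocstamp and Atp6v0d2, were both found in 14 and 56 cells of ABL. In CONT they were both found in 2 and 0 cells. Of the ABL cells, 14 and 54 lay in the osteoclast-like clusters. Both genes, like Acp5, are among the markers that named these clusters, so these values are no separate evidence for the name. A UMI of the tdTomato transgene was present in 80.0% and 68.8% of the osteoclast-like cells, at 328 and 315 CPM, against 97.0% and 93.3% of reticular-like cells of ABL, at 1618 and 1144 CPM. Empty droplets held 536 and 886.5 CPM of the transgene.

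Tnfrsf11a was highest in these osteoclast-like cells, at 107 CPM in ABL1 (79.4 to 142) and 146 CPM in ABL2 (130 to 162). Monocyte- or macrophage-like cells held 9.31 CPM in CONT1, 37.3 in ABL1 and 66.4 in ABL2. In reticular-like cells it was at 0 in 3 libraries and at 0.657 CPM in ABL1. Csf1r was higher in the monocyte- or macrophage-like cells than in the osteoclast-like cells of ABL2, at 905 against 473 CPM. In ABL1 the values were 565 and 543 CPM, with overlapping intervals, and Csf1r stood at 300.4 CPM in the monocyte- or macrophage-like cells of CONT1. No cell of CONT2 fell in the monocyte- or macrophage-like class, so ABL could not be tested against CONT there. The osteoclast-like cells held the ligands at low levels, Tnfsf11 at 10.9 and 0.44 CPM and Csf1 at 15.3 and 5.28 CPM.

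Other receptors of the same ligands lay on the stromal side. Sdc1 and Lgr4, the latter an alternative receptor for RANKL, were the most abundant tested genes of the 6 receptors and decoys in reticular-like cells, and neither passed. Sdc1 had log2 ratios of -0.09 and 0.30 in replicates 1 and 2, and Lgr4 -1.04 and -0.04. Of the 19 tested genes of the signalling chain below RANK and CSF1R none passed with edgeR or DESeq2. Fos, the most abundant of them, had a log2 ratio of -0.79 ± 0.45, made of -0.48 and -1.16. Ptprz1, a receptor of IL34, was highest in osteoblast-like cells, at 73.8 and 169 CPM in ABL.

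Genes with the most similar pattern were taken across 40 sums of a class in a library, as a Pearson correlation of log2(CPM + 10) over 11274 genes. The sums share libraries, depth and free RNA, and the correlations are descriptive. Tnfsf11 was most like Serping1 (r = 0.956), Dpep1, Mme, Ghr and Kng2, and Csf1 was most like Mme (r = 0.944), Notch3, Ebf2, Rbms3 and Dlg5. Genes with a pattern like that of Il34 included Cbln1 (r = 0.906), Slc15a5, Phactr1 and Ms4a4d. Tnfrsf11b was most like Notum (r = 0.933), Cspg4, Susd5, Pcolce2 and Trpv4. Notum encodes a secreted enzyme that inactivates Wnt proteins, and it stood at 36.3 and 32.5 CPM in chondrocyte-like cells of ABL against 0.657 and 0.384 CPM in reticular-like cells of ABL.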

How the data were processed

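Single-cell RNA-seq was made from 4 libraries of tdTomato+ femoral cells, 2 CONT and 2 ABL. The authors deposited raw UMI counts per gene and barcode for all barcodes, made with Cell Ranger on mm10 with transgene sequences added; the Cell Ranger version is not given in the sources used here. Replicate is confounded with the Chromium version. Intervals cover counting error only.

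A barcode counted as a cell when it had 500 or more genes and no more than 20% of its UMIs from mitochondrial genes in replicate 1, or 1000 and 15% in replicate 2, and a UMI total of at least the 99th percentile of the 3000 deepest barcodes divided by 10. Barcodes with at most 300 UMIs served as empty droplets. Scrublet (scanpy 1.11.5) marked 0.083% to 2.27% of cells as doublets; in CONT replicate 2 it marked too few of 2404 cells to show that it worked, and doublets were kept in the main values. Each replicate was clustered with Seurat 5.3.0 (2000 variable genes, 30 components, resolution 0.8), and clusters were named from marker lists with score thresholds set after seeing the data.

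UMIs were summed per library and class and tested with edgeR 4.0.16 (quasi-likelihood, TMM, filterByExpr, replicate block, 1 residual degree of freedom), with Benjamini-Hochberg adjustment over all genes tested at 0.05, in R 4.3.3. The block stands for the paired femurs of the study and for the Chromium version. Deviations of same-numbered libraries from their group means correlated at 0.73 over genes in reticular-like and 0.45 in mesenchymal cells, although Xist sets the replicate 2 libraries apart. On simulated counts with 100 genes changed by 2 on the log2 scale, the test recovered 87 in the reticular-like comparison and 33 in the mesenchymal one. Of 100 genes changed by 1, it recovered 44 and 0.

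The 4 genes and the lists were chosen with earlier results of these data known. Named genes of the lists were those past the threshold and the 2 most abundant per role, with Tnfrsf11a and Csf1r always; Ccl2, Notum, Ptprz1 and the cluster leaders were singled out after their values were seen. A gene named by the rule in the signalling list and 1 gene of the likeness lists are not reported here. Alternatives covered the block, DESeq2 1.42.0, scaling, count and cell filters, doublets, tdTomato, empty-droplet subtraction, sex, resolution, clustering genes and thinning.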

Additional observations from a re-analysis of the deposited data

How the results depend on the processing

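No result changed direction with its call under the alternatives run. Without the replicate block no gene was called by edgeR in reticular-like cells (0, with 339 at an unadjusted p under 0.05) or in mesenchymal cells (0, with 1262), and the log2 ratio of Tnfrsf11b was then 2.72 (adjusted p = 0.9997) and 4.97 (adjusted p = 0.456), and that of Il34 in mesenchymal cells -2.04 (adjusted p = 0.456). The 423 calls in reticular-like cells became 161 with DESeq2 and 167 after thinning to 2000 UMIs. The 408 in mesenchymal cells became 675 with DESeq2, 977 without TMM, 1263 without the low-count filter, 870 with the strict cell filter, 613 after thinning and 54 after subtraction of the empty-droplet profile. Tnfrsf11b in reticular-like cells lost its call with DESeq2 (2.76, adjusted p = 0.226) and with doublets removed (2.42, edgeR adjusted p = 0.0651), and had no value after subtraction or thinning, where it fell below the count filter. Tnfsf11 in mesenchymal cells passed with DESeq2 (-2.02, adjusted p = 0.00942) and without the low-count filter (-2.04, edgeR adjusted p = 0.0450). Il34 there did not pass after subtraction (-2.06, edgeR adjusted p = 0.113). The causes were not tested. In cells with a Y-linked and no Xist UMI the mean reticular-like log2 ratio was -0.96 for Tnfsf11, 4.44 for Tnfrsf11b and -0.24 for Csf1. Leaving out a replicate gave 0.026 to 0.069 for reticular-like Csf1; counts of calls have no value without a replicate, since no residual degree of freedom is left. The mean reticular-like Tnfsf11 share of both transcripts was 99.97% in CONT after thinning, and 99.6% after subtraction and 97.7% in Y-linked cells in ABL. Under alternatives chosen after seeing the data, the 20 osteoclast-like cells of ABL replicate 1 became 59 with the study's filter alone and 0 with the strict filter or resolution 0.4, and the 80 of ABL replicate 2 became 45 at resolution 1.5. The comparison in monocyte- or macrophage-like cells was not run, because CONT replicate 2 had none. The subtraction used the hemoglobin estimate of free RNA. In both ABL libraries and in CONT replicate 1 it would give more Acp5 in reticular-like cells than was counted. Counts of Tnfrsf11b in CONT were low, at 23 and 11 UMIs over all cells of replicates 1 and 2, so its ratios there carry wide counting intervals.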
